A study of Rattus norvegicus with 7 samples.

Results

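The genes described here are interleukins and the genes that amplify or restrain inflammatory signaling around them: the interleukin-1 ligands Il1a and Il1b and their receptor antagonist Il1rn, the gp130 cytokines Il6, Il11 and Lif, the stromal cytokine Il7, the prostaglandin synthase Ptgs2, and the NF-kB inhibitors Nfkbia and Tnfaip3. They were taken by gene symbol from a list of 10 names, and 9 of the 10 had a row among the 17147 gene symbols in the files. The level of Tnfaip3 was not analysed here. The list was selected on measured values, with earlier results of these data known: of the films, ISB-P had the lower Il1rn and the higher Il7. The values of all members on ISB-P and PCL are therefore given as a description. The intervals printed with them give the size of the spread, and counts of members past a threshold are set beside the share of all genes and support nothing.

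All libraries came from rMSCs, mesenchymal stem cells grown out of bone marrow, 4 h after 20000 cells were seeded per surface in growth medium with serum. The donor was a male Sprague-Dawley rat aged 6 weeks. No genetic change and no drug is described, and the groups are set apart by their surface. ISB-P is a film of a polyurethane copolymer built from PCL diol and propoxylated isosorbide (n = 3), PCL a polycaprolactone film (n = 3), both 16 mm in diameter and sterilized by ethylene oxide gas, and TCP is tissue culture plastic (n = 1). The RNA sequencing is described as triplicate, while the TCP values and ratios here rest on the single TCP library at hand. Cells from 1 donor are named and separate cultures are not, so p-values measure only the spread between these libraries, which may be technical. Values are FPKM, fragment counts corrected for the length of the transcript and the size of the library. Their sums were 539393 on TCP, 542921 to 597954 on PCL and 590628 to 660124 on ISB-P, and the read depth behind them is unknown. Libraries with the same replicate number on both films deviated together, so ratios within a replicate number are given beside the means. Of 11 stromal markers, 9 were at 8.13 FPKM or more in every library. These ran from Nt5e (8.13 to 12.9) and Eng (11.1 to 19.2) through Thy1 (925 to 1210) to Col1a1 (3868 to 10406). The markers below that level were Lepr, at 0.386 to 1.29 FPKM, and Col1a2, listed at 0 throughout.

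Interleukin-1 alpha and beta bind one receptor on stromal cells, which passes the signal through MyD88 and IRAK proteins to the kinases that release NF-kB from its inhibitors. NF-kB then switches on cytokines such as Il6 and Lif, the enzyme Ptgs2 that makes the precursor of prostaglandins, and its own brakes, among them Nfkbia (IkB alpha), which holds NF-kB in the cytoplasm, and Tnfaip3 (A20), which edits ubiquitin on the signaling complex. Il1rn occupies the interleukin-1 receptor without signaling, and Il7, made by bone marrow stroma, sustains lymphocyte progenitors.

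Promoter sequences from RefSeq (assembly GRCr8) were found for 8 of the 10 members. The 250 bases before the annotated start were searched on both strands for GGG followed by any 2 bases and TTTCC, a form of the NF-kB site, which 1.3% of 33469 promoters of the same length held. It was present before Il6, Il1rn, Nfkbia and Tnfaip3 and not in the windows of Il1a, Il1b, Il11 and Ptgs2. The 3 measured genes that hold it are shown. They lay at the extremes of the comparison between the films and at its center: Il6 was higher on ISB-P, Il1rn was lower and Nfkbia was level. Capitals mark the NF-kB-like match and, in Il6, the cyclic AMP response element TGACGTCA (present in 1.59% of promoters). The Il6 window is chr4:5894576-5894825 on the minus strand, the Il1rn window chr3:27520072-27520321 on the plus strand and the Nfkbia window chr6:78597073-78597322 on the minus strand.
Il6: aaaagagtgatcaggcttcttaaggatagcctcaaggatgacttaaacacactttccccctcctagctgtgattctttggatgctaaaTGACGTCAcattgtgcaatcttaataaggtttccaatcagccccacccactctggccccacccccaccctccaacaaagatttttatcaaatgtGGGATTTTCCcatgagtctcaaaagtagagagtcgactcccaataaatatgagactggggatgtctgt
Il1rn: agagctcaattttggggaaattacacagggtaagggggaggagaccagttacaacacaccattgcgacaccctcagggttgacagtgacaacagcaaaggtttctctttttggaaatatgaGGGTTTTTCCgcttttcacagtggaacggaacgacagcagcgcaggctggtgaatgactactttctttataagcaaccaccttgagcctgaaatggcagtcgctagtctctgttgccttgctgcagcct
Nfkbia: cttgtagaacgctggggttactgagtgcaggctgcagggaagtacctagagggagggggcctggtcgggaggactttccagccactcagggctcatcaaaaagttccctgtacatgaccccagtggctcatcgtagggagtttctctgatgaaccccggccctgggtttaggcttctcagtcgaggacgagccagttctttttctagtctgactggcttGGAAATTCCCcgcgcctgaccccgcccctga
The match began 68 bases before the start of Il6, 129 before Il1rn and 31 before Nfkbia, where it lies on the opposite strand. These 3 genes are all the measured holders, and the members were chosen with values on the films known. A link between the motif and the values was therefore not tested. TGANTCA, the AP-1 site (6.34% of promoters), was found before Il11, Il1a and Tnfaip3, and GAANNTTC, the core of the heat shock element (7.23%), before Ptgs2 alone. A match is a description of these letters, not a bound site.

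Among the interleukin-1 genes, the antagonist was far more abundant than the ligands, and it differed most between the surfaces. In PCL replicates 1, 2 and 3 the level of Il1rn was 59.2, 81.0 and 79.4 FPKM. On ISB-P it was 29.4, 37.3 and 42.2 FPKM, and on TCP it was 23.4 FPKM. Each ISB-P library lay below each PCL library and above the TCP library. The means were 73.2 ± 12.2 FPKM (SD, n = 3) on PCL and 36.3 ± 6.47 (SD, n = 3) on ISB-P, a difference of -0.99 on log2(FPKM + 1) with a 95% interval from -1.45 to -0.54. Within replicates 1, 2 and 3, PCL was 2.01, 2.17 and 1.88 times ISB-P, so that the ratio varied little while the levels themselves were lowest in replicate 1 on both films.

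Il1a, the form of interleukin-1 that stays largely cell-bound, was 2.18, 4.38 and 4.99 FPKM on PCL, 1.74, 3.03 and 3.91 on ISB-P, and 1.81 on TCP. The films overlapped, although within each replicate number ISB-P was the lower, at 0.796, 0.692 and 0.783 of PCL. Il1b, the secreted form that caspase-1 matures, was 4.49, 5.98 and 6.33 FPKM on PCL and 4.22, 4.78 and 5.24 on ISB-P. Its films overlapped too, and within each replicate number it was also lower on ISB-P, at 0.941, 0.799 and 0.828 of PCL. It was 11.1 FPKM on TCP, above all 6 film libraries, and was the one member whose highest value was on plastic. The mean level of Il1rn was 73.2 FPKM on PCL against 3.85 ± 1.48 for Il1a and 5.60 ± 0.978 for Il1b (SD, n = 3), on a scale that corrects for transcript length.

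**Figure D1:**
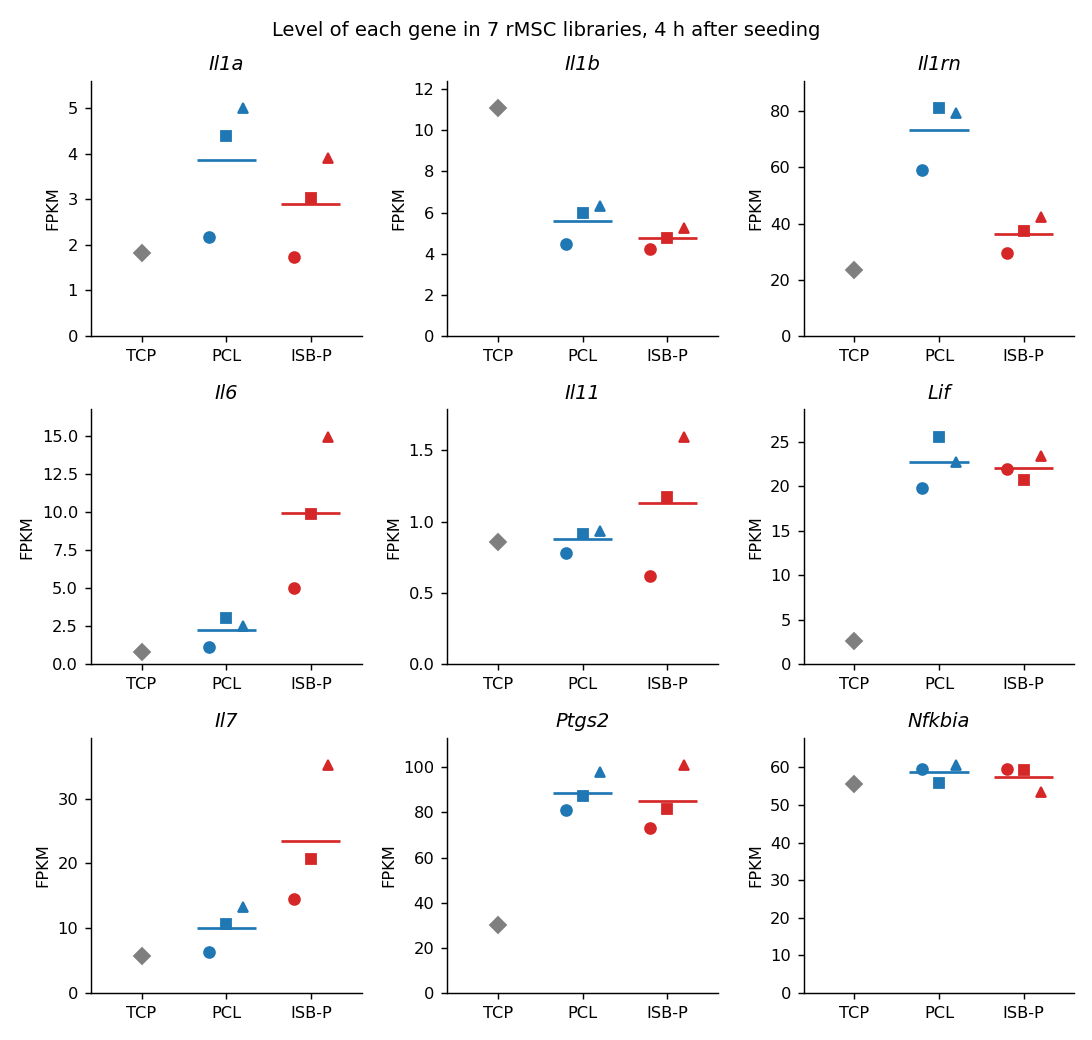
FPKM (y axis, linear from 0) of 9 genes in the TCP (diamond), PCL and ISB-P libraries, with circles, squares and triangles for replicates 1, 2 and 3 and a bar at the mean of each film. Il1rn sits between 29.4 and 42.2 on ISB-P and between 59.2 and 81.0 on PCL, for Il6 and Il7 the lowest ISB-P value is above the highest PCL value, and Lif and Ptgs2 are lower on TCP than in the film libraries.

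The gp130 cytokines signal through the shared receptor chain Il6st, and they did not share one pattern. On PCL, Il6 was 1.18, 3.04 and 2.54 FPKM (replicates 1, 2 and 3), on ISB-P 5.03, 9.90 and 15.0 in that order, and on TCP 0.835. The order was TCP, PCL and ISB-P, with no overlap between the films. The means were 2.25 ± 0.964 and 9.96 ± 4.96 FPKM (SD, n = 3), a ratio of 4.42, and the difference on log2(FPKM + 1) was 1.69 (95% interval 0.77 to 2.61). ISB-P was 4.27, 3.26 and 5.89 times PCL within replicates 1, 2 and 3.
Lif, which supports stem cell self-renewal and acts through Lifr and Il6st, was 19.8, 25.5 and 22.7 FPKM on PCL and 21.9, 20.7 and 23.4 on ISB-P. The films overlapped and differed by -0.04 (95% interval -0.37 to 0.29). On TCP Lif was 2.62 FPKM, below all film libraries. Il11 was near 1 FPKM on all surfaces: 0.784, 0.913 and 0.933 on PCL, 0.623, 1.17 and 1.59 on ISB-P and 0.860 on TCP. It was the one member with a row that did not pass the filter, which asked for 1 FPKM or more in 3 or more film libraries.

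On PCL, Il7 was 6.36, 10.7 and 13.2 FPKM (replicates 1, 2 and 3), on ISB-P 14.5, 20.7 and 35.1, and on TCP 5.65. ISB-P replicate 1 lay just above PCL replicate 3, and TCP below PCL replicate 1, so the 3 surfaces did not overlap. The means were 10.1 ± 3.46 FPKM on PCL and 23.4 ± 10.6 on ISB-P (SD, n = 3), and the difference on log2(FPKM + 1) was 1.10 (95% interval 0.24 to 1.97). Most of the spread lay between replicate numbers, since ISB-P was 2.27, 1.93 and 2.66 times PCL within replicates 1, 2 and 3. Over the 7 libraries, the log2(FPKM + 1) profiles most like that of Il7 among 9467 tested genes were those of Chordc1 (Pearson's r = 0.997), Cpeb4 (r = 0.994) and Hspa4 (r = 0.994). Chordc1, for example, was 29.4, 55.6 and 74.0 FPKM on PCL, 70.8, 117 and 263 on ISB-P and 25.4 on TCP. The profiles closest to Il1rn were less alike, those of Pcgf6 (r = 0.973), RGD1306151 (r = 0.969) and Fam60a (r = 0.968). These correlations describe 7 libraries that fall into 3 surfaces and were picked as the highest of many.

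Ptgs2, the inducible cyclooxygenase, was 81.1, 87.5 and 97.9 FPKM on PCL and 73.3, 81.6 and 101 on ISB-P, and 30.0 on TCP. The films overlapped and differed by -0.07 (95% interval -0.45 to 0.31), and both lay above TCP in every library. Nfkbia varied least of all members. It was 59.7, 55.9 and 60.6 FPKM on PCL, 59.4, 59.3 and 53.5 on ISB-P and 55.7 on TCP, with a difference between the films of -0.03 (95% interval -0.31 to 0.25).

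The following counts include the values on which members were chosen, so they are no test of the members. Of the 8 members that passed the filter, 3 did not overlap between ISB-P and PCL, where 17.7% of the 9467 tested genes did not. Il6 and Il7 were above PCL in this way (8.17% of tested genes) and Il1rn was below (9.54%). In limma, with adjustment over all tested genes, 0 of the 8 members passed 0.05, a call that 1.72% of tested genes reached (1.1% higher and 0.623% lower on ISB-P). This count turned on the processing, since Il1rn passed under each of 3 other scalings and Il6 without ISB-P replicate 1. The 3 genes without overlap had an unadjusted p under 0.05, as did 12.1% of tested genes. With a block for replicate number, 4 of the 8 passed (Il6 and Il7 higher on ISB-P, Il1rn and Il1a lower), against 24.4% of tested genes (13% higher and 11.4% lower). The thresholds of the study were a change over 2-fold, p under 0.1 and normalized values over 16. Here they were applied to the limma fit, with the fold on log2(FPKM + 1) and unadjusted p. The level was read as 16 FPKM or more on average on one of the films, since the study names no unit. Genes that pass here need not be those of the study. By these thresholds Il7 passed and the other 7 members did not, against 0.687% of tested genes (0.613% higher). Il1rn was just short of the fold limit at -0.99 on log2(FPKM + 1), although the ratio of its means was 2.02, and it passed these thresholds with a pseudocount of 0.1 (-1.01), quantile normalization (-1.09) and upper quartile scaling (-1.04). After scaling to a common total Il1rn passed (-1.11) and Il7 did not (0.995). The same exchange occurred without ISB-P replicate 3 and without PCL replicate 1, and both passed without ISB-P replicate 2. Il6 was below 16 FPKM on both films. The median difference of the 8 members was -0.05, and that of all tested genes 0.02.

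**Figure D2:**
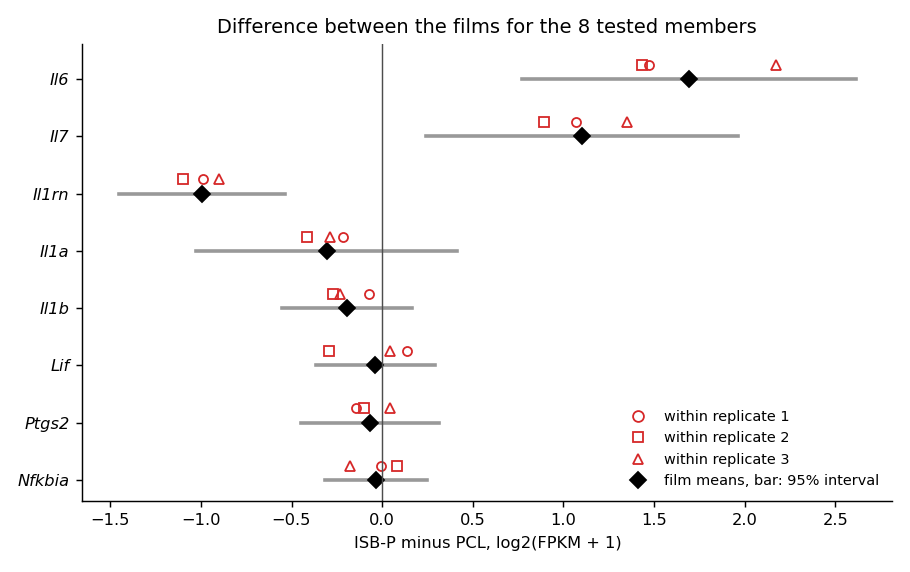
Difference between ISB-P and PCL on log2(FPKM + 1) (x axis) for the 8 members that passed the filter, with the difference of film means (black diamond), its 95% interval (grey bar) and the difference within each replicate number (open red symbols). Il6 at 1.69 and Il7 at 1.10 lie to the right, Il1rn at -0.99 to the left, and all 3 replicate numbers give these genes the same sign.

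Against plastic, further members stood out beside Il1rn, Il6 and Il7. The ratio of (film mean + 1) to (TCP + 1) was 6.53 on PCL and 6.34 on ISB-P for Lif, and 2.90 and 2.78 for Ptgs2, so the films were alike for these genes and both above TCP. For Il6 the ratio was 1.77 on PCL and 5.97 on ISB-P, and for Il7 1.67 and 3.67. Il1rn was the reverse, with 3.04 on PCL and 1.53 on ISB-P. Nfkbia stayed at 1.05 and 1.03, and Il1a at 1.73 and 1.39. Il1b was 1.83 times higher on TCP than on PCL and 2.10 times higher than on ISB-P. On ISB-P 4 of the 8 members were over 2-fold above TCP and 1 over 2-fold below, where 8.98% and 4.28% of tested genes were. On PCL 3 were over 2-fold above and 0 below, where 5.56% and 3.04% of tested genes were. Without PCL replicate 1, 5 members were over 2-fold above TCP on PCL. TCP is 1 library shared by both comparisons, so a test would have to borrow the spread of the films. None was made, and the ratios have no replicate check on the TCP side.

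**Figure D3:**
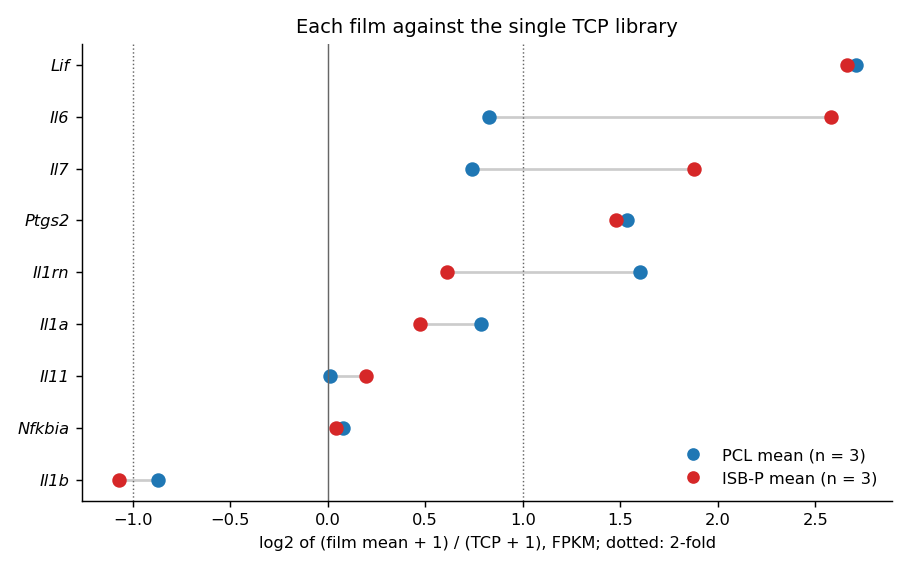
The log2 ratio of the film mean to the TCP library (x axis, 1 FPKM added to each, dotted lines at 2-fold) for 9 genes on PCL (blue) and ISB-P (red). Lif and Ptgs2 lie beyond 2-fold on both films, Il6 and Il7 do so on ISB-P (5.97 and 3.67) and Il1rn on PCL (3.04), and Il1b lies left of 0.

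Il1b is a product of macrophages as well as of stroma, and markers of leukocytes and macrophages were also highest on TCP. Of 14 such markers with a row, 13 were higher on TCP than in any film library, among them Lyz2 (72.9 FPKM on TCP, 16.6 to 27.2 on the films), Cd68 (15.1 and 3.05 to 6.24) and Csf1r (5.70 and 1.66 to 2.33). Their sum was 169 FPKM on TCP, 52.0 to 62.2 on PCL and 52.7 to 59.7 on ISB-P. Cd163 was listed at 0 in all libraries. Of the 11 stromal markers, 4 were also higher on TCP than in any film library. The share of all genes above the films on TCP in this way is not given here. The leukocyte and macrophage sums overlapped between the films, and none of the 7 markers tested passed an adjusted p under 0.05 in limma. Cd14 was 14.4 to 16.6 FPKM on PCL and 10.9 to 11.4 on ISB-P, without overlap, as for 17.7% of tested genes. Lyz2 leaned the other way but overlapped, at 16.6 to 21.5 on PCL and 20.7 to 27.2 on ISB-P. The part of leukocytes and macrophages in the level of Il1b or of any other member was not tested. In bulk RNA, fewer cells of a type and less RNA per cell cannot be told apart. Neutrophil, lymphocyte and endothelial markers were each under 1 FPKM in every library.

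**Figure D4:**
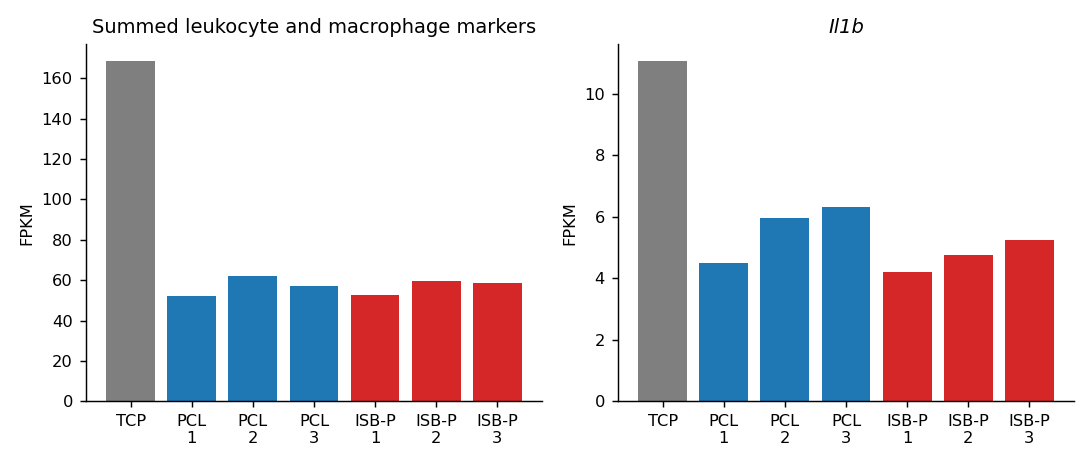
Summed FPKM of 14 leukocyte and macrophage markers (left) and FPKM of Il1b (right) in each library, with bars from 0 in grey for TCP, blue for PCL and red for ISB-P. TCP has the highest bar in both panels, at 169 and 11.1, and the films overlap in both.

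The receptors, transducers, brakes and targets around these members were taken as 8 lists of 134 genes, of which 121 had a row and 87 passed the filter. In limma on log2(FPKM + 1), two-sided, with p-values adjusted over all 9467 tested genes, 1 of the 87 was higher on ISB-P and 1 lower (2.3%, against 1.72% of all tested genes). Clcf1, a gp130 cytokine that uses the receptor of ciliary neurotrophic factor, was 19.7, 22.5 and 17.3 FPKM on PCL and 39.6, 43.7 and 33.7 on ISB-P, with no overlap and 20.8 on TCP. It rose by 0.94 on log2(FPKM + 1) (standard error 0.16, adjusted p = 0.0445 in limma). Nos2, the inducible nitric oxide synthase, was 4.09, 3.98 and 3.37 FPKM on PCL, 1.73, 1.57 and 1.37 on ISB-P and 7.69 on TCP. It fell by 0.91 (standard error 0.11, adjusted p = 0.0177 in limma), and the pseudocount of 1 understates the change at these low levels. The call of Clcf1 was lost under scaling to a common total (adjusted p = 0.107 in limma), upper quartile scaling (0.108) and quantile normalization (0.0995), and leaving out each library in turn gave adjusted p from 0.0441 to 0.269 for Clcf1 and from 0.0422 to 0.156 for Nos2. With the replicate block, 13 of the 87 were higher and 16 lower, which is 33.3%, against 24.4% of tested genes.

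Of the 16 tested genes of interleukin-1 reception, 0 passed without the block. The receptor Il1r1 was 38.6, 64.8 and 74.6 FPKM on PCL and 32.4, 45.4 and 76.9 on ISB-P, with 25.6 on TCP, and its films overlapped. Its partner chain Il1rap was 11.7 ± 1.39 and 13.4 ± 2.85 FPKM (SD, n = 3). Il1rl1, the receptor of interleukin-33, was the most abundant gene of the list, at 638 ± 170 FPKM on PCL, 955 ± 409 on ISB-P (SD, n = 3) and 1043 on TCP. It and Il18 had the largest differences of the list, 0.53 and 0.61. Their adjusted p in limma was 0.683 and 0.430, or 0.00559 and 0.0233 with the replicate block. With the block, 4 genes of the list were higher and 0 lower. That is 25% of its tested genes, near the 24.4% of all tested genes. With 1 library left out, the difference of Il1rl1 lay between 0.21 and 0.82 and that of Il18 between 0.30 and 0.78, both lowest without ISB-P replicate 3.

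Among 17 tested genes of gp130 signaling, Clcf1 was the one that passed. The shared chain Il6st was 198 ± 33.0 FPKM on PCL and 214 ± 51.1 on ISB-P (SD, n = 3), and Il11ra1 was 14.3 ± 2.71 and 12.7 ± 3.27. The ligand-binding chain Lifr was 4.59, 5.77 and 6.61 FPKM on PCL, 2.40, 2.78 and 3.42 on ISB-P and 8.30 on TCP, with no overlap. Its difference of -0.78 had an adjusted p of 0.0830 in limma, 5.18e-04 with the replicate block, 0.0357 after scaling to a common total and 0.0413 under upper quartile scaling. Socs3, the feedback inhibitor that gp130 signaling induces, was 26.8, 19.2 and 18.4 FPKM on PCL and 15.9, 10.6 and 8.89 on ISB-P. Its difference of -0.83 (adjusted p = 0.194 in limma, 2.77e-04 with the replicate block) was also free of overlap. Pim1 went the other way, at 3.83, 3.35 and 3.36 FPKM on PCL and 9.83, 5.87 and 5.51 on ISB-P, with no overlap. The difference of Pim1 was 0.80 (adjusted p = 0.150 in limma, 0.00241 with the replicate block). With the block, 2 genes of the list were higher and 7 lower, which is 52.9% of its tested genes, against 24.4% of all tested genes.

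Among the receptor and transducers of Il7, Il7r was listed at 0 in all 7 libraries. A listed 0 may be a failed estimate, since Col1a2 was also listed at 0 throughout while Col1a1 was 3868 to 10406 FPKM. None of the 5 tested genes of this list passed. Stat5a was 14.7, 11.7 and 10.7 FPKM on PCL and 7.65, 6.83 and 4.80 on ISB-P (difference -0.86, adjusted p = 0.105 in limma, 3.65e-04 with the block), and Stat5b was 4.64 ± 1.08 and 2.95 ± 0.396 FPKM (SD, n = 3). The difference of Stat5b was -0.50 (adjusted p = 0.261 in limma, 0.00623 with the block).

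Of 12 tested prostaglandin genes, 0 passed. Ptgs1, the constitutive cyclooxygenase, was 58.3 ± 3.45 FPKM on PCL and 60.2 ± 4.10 on ISB-P (SD, n = 3), with 43.6 on TCP, and Ptges, the inducible synthase of prostaglandin E2, was 7.66 ± 0.856, 8.09 ± 0.448 and 7.79. The 95% interval of the difference between the films was -0.25 to 0.34 for Ptgs1 and -0.22 to 0.37 for Ptges. Ptges3, which is also the Hsp90 cochaperone p23, was 333 ± 105 FPKM on PCL, 482 ± 169 on ISB-P (SD, n = 3) and 170.3 on TCP (difference 0.52, adjusted p = 0.655 in limma, 8.03e-04 with the block, and 0.26 to 0.76 with 1 library left out). Ptger4, a receptor of prostaglandin E2, was 3.18 ± 0.636 and 4.77 ± 1.18 FPKM (SD, n = 3) on PCL and ISB-P.

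The factors and kinases of NF-kB, 10 tested genes, held no call either. Nfkb1 was 35.8 ± 1.74 FPKM on PCL and 37.9 ± 2.07 on ISB-P, Rela was 40.1 ± 6.60 and 41.8 ± 7.43, and Nfkbiz, an atypical IkB that assists Il6 transcription, was 4.77 ± 0.397 and 5.04 ± 0.811 (SD, n = 3). Nfkbie, another inhibitor of NF-kB, was 34.6, 27.6 and 26.5 FPKM on PCL and 24.8, 19.8 and 15.4 on ISB-P (difference -0.56, adjusted p = 0.317 in limma, 0.00246 with the block), where that of Nfkbia was -0.03. Nfkb2, the precursor of p52, was 36.0 ± 7.51 and 31.4 ± 9.65 FPKM (SD, n = 3).

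Of 15 tested genes of other brakes, 0 passed. Dusp1, a phosphatase that switches off p38 and JNK, was 33.2, 29.9 and 26.2 FPKM on PCL, 64.2, 60.4 and 47.3 on ISB-P and 101 on TCP (difference 0.92, adjusted p = 0.0523 in limma, 7.81e-05 with the block). Zfp36, which destabilizes cytokine mRNAs, was 94.6 ± 15.8 and 90.2 ± 11.5 FPKM (SD, n = 3) on the films and 45.9 on TCP, and its paralog Zfp36l1 was 63.0 ± 12.9, 94.7 ± 13.9 and 149 (difference between the films 0.59, adjusted p = 0.252 in limma, 6.76e-04 with the block). The A20 partner Tnip1 was 28.3 ± 4.76 and 26.7 ± 7.76 FPKM, and Birc3, a ubiquitin ligase of the receptor complex, 8.71 ± 1.14 and 6.68 ± 0.460 (SD, n = 3). The difference of Birc3 was -0.33 (adjusted p = 0.370 in limma, 0.0218 with the block).

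Among 11 tested targets of NF-kB, Nos2 was the one call without the block. With it, 2 were higher and 4 lower, which is 54.5%, against 24.4% of all tested genes. Irf1 was 23.7 ± 0.978 FPKM on PCL and 15.3 ± 0.295 on ISB-P (SD, n = 3), and Plau 65.6 ± 6.38 and 41.2 ± 4.56. Their differences were -0.60 and -0.66 (adjusted p = 0.0579 and 0.0930 in limma, 8.49e-04 and 4.44e-04 with the block). Icam1, an adhesion receptor for leukocytes, was 16.4 ± 0.583 FPKM on PCL and 17.4 ± 2.06 on ISB-P (SD, n = 3) and 33.1 on TCP, and Sod2, the mitochondrial superoxide dismutase, was 79.7 ± 15.9, 90.6 ± 15.8 and 48.2. Tnfaip6, a hyaluronan-binding protein, was 2.24, 4.30 and 5.82 FPKM on PCL and 5.33, 7.84 and 12.8 on ISB-P (difference 0.91, adjusted p = 0.375 in limma, 3.09e-04 with the block). Of tested genes, the block called 40% in the Il7 list, 25% in prostaglandin genes, 10% in NF-kB factors and 26.7% in other brakes. The list medians ranged from -0.25 for the Il7 list to 0.15 for the interleukin-1 list among lists with over 1 tested gene, beside 0.02 for all tested genes.

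**Figure D5:**
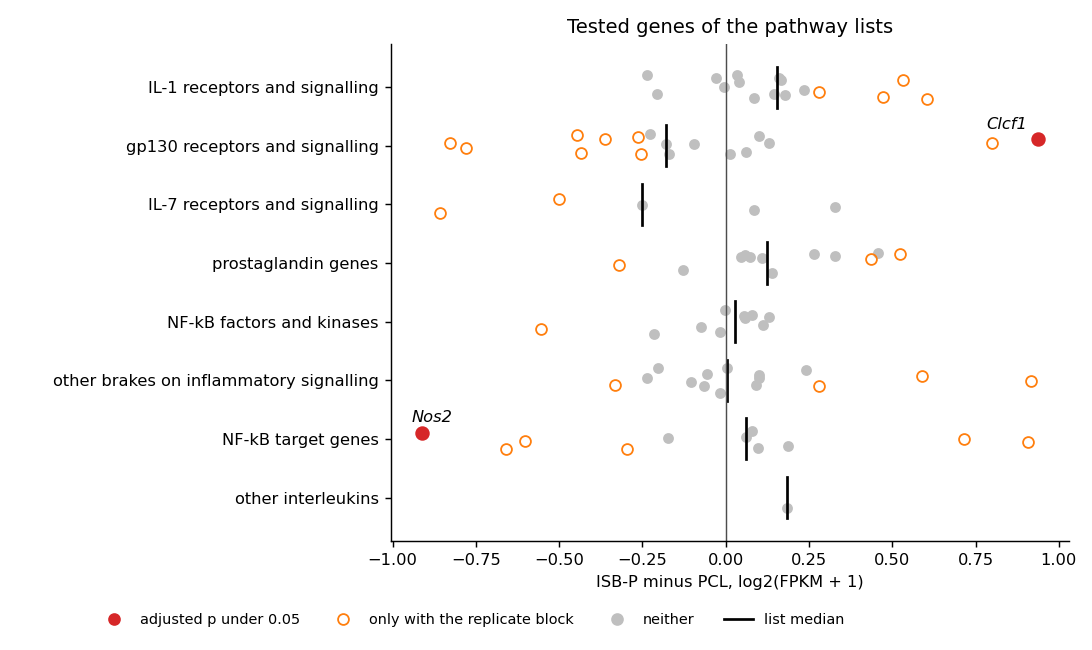
Difference between ISB-P and PCL on log2(FPKM + 1) (x axis) for the 87 tested genes of 8 lists (rows, spread vertically for legibility), with list medians as black bars. Clcf1 at 0.94 and Nos2 at -0.91 (filled red) passed an adjusted p under 0.05, and open orange circles passed with the replicate block and not without it.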

How the data were processed

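RNA-seq of rMSCs was analysed in 7 libraries, 3 on ISB-P, 3 on PCL and 1 on TCP, grouped by the sample labels. The authors prepared TruSeq stranded mRNA libraries, read them as paired ends and deposited 1 table per library, read here as FPKM. The headers name no unit, and the reading rests on the values, which are not whole numbers, and on Cuffdiff 2.2.1 among the tools of the submitters' processing notes, which also list bcl2fastq 2.20.0.422, cutadapt 1.18, TopHat2 2.0.13 and build rn5. Filters and annotation are not given in the sources used here. Depth is unknown, so no counting interval is given.

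Genes that reached 1 FPKM in 3 or more of the 6 film libraries were fitted with limma 3.58.1 in R 4.3.3 (trend, two-sided, Benjamini-Hochberg) on log2(FPKM + 1), without TCP. Standard errors and 95% intervals come from this fit. The fit was also run on simulated data with independent noise in each library. Those data held no effect shared by a replicate number, so that run cannot check the intervals for it. Fold changes on log2(FPKM + 1) understate the change of low genes. Replicate numbers pair the films: across 9467 genes, deviations from the film means gave r of 0.887, 0.431 and 0.867 between films within a number, and -0.836 to 0.177 across numbers. The pairing comes from the labels' numbers alone.

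Members and lists were chosen with earlier results of these data known. Named genes are the members, list genes past the adjusted threshold, the 2 largest differences of each list, a fixed set of receptors, factors and brakes, and for Il1rn and Il7 the 3 genes of likest profile. Pim1, Irf1 and Plau were added after their values were seen. Other markers serve to check cell types. The alternatives tried were a pseudocount of 0.1, no filter, a minimum of 5 FPKM, 3 scalings, the replicate block, TCP in the fit and each film library left out. Sequences are from RefSeq, GRCr8. Plots were made in Python 3.11.15 (matplotlib 3.10.9).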

Additional observations from a re-analysis of the deposited data

How the results depend on the processing

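Depth is unknown, TCP is 1 library and each film has 3, so small differences could not be resolved. Scaling to a common total moved the median difference of all tested genes from 0.02 to -0.09, and differences under it are relative to that shift. All 8 member differences kept their sign under the 3 scalings and the pseudocount of 0.1. With 1 library left out, those of Lif, Ptgs2 and Nfkbia crossed 0 (up to 0.049, 0.035 and 0.017), Il1rn stayed between -1.14 and -0.85, Il6 between 1.37 and 2.07 and Il7 between 0.78 and 1.39. The cause of the changes below was not tested.

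With the replicate block, 1228 genes were called higher on ISB-P and 1079 lower (104 and 59 without it), including 13 and 16 pathway genes and 4 members. A minimum of 5 FPKM gave 61 and 24 genes and 0 and 0 pathway genes. Pathway genes called higher were 0 under upper quartile scaling, quantile normalization and a common total, and those called lower were 3, 2 and 4. These scalings each called 1 member, Il1rn (0 without them), and upper quartile scaling called 39 genes lower. By the study thresholds, 14 genes were lower after scaling to a common total (7 without), and 2 members passed with a pseudocount of 0.1, with quantile normalization and with upper quartile scaling (Il1rn and Il7, where Il7 was the 1 without). A pseudocount of 0.1 put 5 members over 2-fold above TCP on PCL. The difference of Nfkbia was -0.13 under quantile normalization and -0.15 after scaling to a common total.

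Leaving out each film library in turn gave 13 (without PCL replicate 2) to 70 genes higher, 2 (without PCL replicate 2) to 30 lower, 7 to 18 lower by the study thresholds (18 without ISB-P replicate 1), 0 to 2 pathway genes higher and 0 to 1 lower, 0 to 1 members called (Il6, without ISB-P replicate 1), 1 to 2 members past the study thresholds (2 without ISB-P replicate 2, and Il1rn in place of Il7 without ISB-P replicate 3 or PCL replicate 1) and 3 to 5 members over 2-fold above TCP on PCL.

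Small differences of named genes changed sign. Under quantile normalization Il6st was -0.062, Ptgs1 -0.052 and Rela -0.014. After scaling to a common total, Il6st was -0.017, Ptgs1 -0.068, Rela -0.058, Ptges -0.031, Nfkb1 -0.035, Nfkbiz -0.038 and Icam1 -0.032. With 1 library left out, the ranges that crossed 0 were Il6st -0.080 to 0.26, Rela -0.085 to 0.20, Il1r1 -0.56 to 0.047, Il11ra1 -0.34 to 0.014, Tnip1 -0.32 to 0.079, Zfp36 -0.15 to 0.067, Ptgs1 -0.0036 to 0.093, Nfkbiz -0.0062 to 0.18 and Icam1 -0.0064 to 0.15. Clcf1 lost its call without ISB-P replicate 1 or 2 or any PCL library, and Nos2 without ISB-P replicate 2 or any PCL library.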

Other observations

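Most other interleukins had low listed values in these libraries. Of 21 further interleukin genes with a row, 19 were under 1 FPKM in all 7 libraries, and Il2, Il4, Il13, Il17a and Il21 were listed at 0 in each. A listed 0 may be a failed estimate, as Col1a2 was also listed at 0 throughout, so these genes are not called absent. The exceptions were Il15, which supports natural killer cells, at 0.200 to 1.91 FPKM on the films and 1.46 on TCP, and Il34, a ligand of the receptor Csf1r, at 1.02 ± 0.188 FPKM on PCL, 1.30 ± 0.265 on ISB-P (SD, n = 3) and 2.70 in the TCP library. Il33, the ligand of Il1rl1, was at 0.999 ± 0.290 FPKM on PCL, 1.17 ± 0.641 on ISB-P (SD, n = 3) and 3.98 in the TCP library. Il15 and Il33 were singled out after their values were seen.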
